A study of Rattus norvegicus with 5 samples.

Results

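Transcripts of 10 enzymes that detoxify superoxide, peroxides, haem and quinones were followed through single-cell RNA sequencing of rat retina. The genes were Sod1, Sod2, Cat, Gpx1, Gpx4, Prdx1, Prdx2, Prdx6, Hmox1 and Nqo1, 10 of the 25399 genes in the matrices. They were taken as a named set, with earlier results of these data known. Each symbol matched 1 gene of the files. Retinas came from SD rats. Diabetic rats had received streptozotocin, a toxin of pancreatic beta cells, at 45 mg/kg, had a blood glucose above 200 mg/dL, were then fed high-fat, high-sugar chow and were sampled at 2, 4 and 8 weeks (1 library per time). Control rats, at 0 weeks, had received citrate buffer, and 1 of the 2 control samples (replicate 2) was analysed. Ages of the animals, and how many retinas made up a library, are not given in the sources used here. Time since streptozotocin cannot be told apart from diet, animal, age or preparation.

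As background, superoxide leaking from respiration and phototransduction is turned into hydrogen peroxide by the superoxide dismutases. Catalase, the glutathione peroxidases and the peroxiredoxins remove that peroxide or the lipid hydroperoxides it gives rise to. Hmox1, haem oxygenase, degrades haem, and Nqo1 reduces quinones, and both are textbook targets of the transcription factor NRF2, which binds antioxidant response elements. Photoreceptors have a high oxygen use and membranes rich in polyunsaturated lipid, and oxidative damage is a classical theme of diabetic retinopathy.

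The proximal promoters of the 4 members that were at least 1.5-fold higher in rods at 2 weeks are shown. At 4 weeks Sod1 lay below control in rods, unlike Prdx1, Prdx2 and Gpx4. Each run holds the 250 bases before the annotated start of transcription, written 5′ to 3′ on the gene's strand, from RefSeq with the GRCr8 build. Capitals mark the matches to the motifs searched. Prdx1 lies at chr5:135383656-135383905 (plus strand), Prdx2 at chr19:40090983-40091232 (minus strand), the first of 3 Gpx4 starts at chr7:10303630-10303879 (minus strand) and Sod1 at chr11:42942573-42942822 (plus strand).
Prdx1: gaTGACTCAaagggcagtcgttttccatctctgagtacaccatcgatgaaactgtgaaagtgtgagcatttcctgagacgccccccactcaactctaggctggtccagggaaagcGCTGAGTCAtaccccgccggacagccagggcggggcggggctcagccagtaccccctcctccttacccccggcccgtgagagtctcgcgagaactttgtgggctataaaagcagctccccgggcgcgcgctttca
Prdx2: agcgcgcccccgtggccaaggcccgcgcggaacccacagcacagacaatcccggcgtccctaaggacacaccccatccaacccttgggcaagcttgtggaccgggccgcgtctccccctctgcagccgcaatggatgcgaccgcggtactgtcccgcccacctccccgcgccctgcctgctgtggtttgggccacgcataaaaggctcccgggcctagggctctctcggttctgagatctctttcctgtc
Gpx4: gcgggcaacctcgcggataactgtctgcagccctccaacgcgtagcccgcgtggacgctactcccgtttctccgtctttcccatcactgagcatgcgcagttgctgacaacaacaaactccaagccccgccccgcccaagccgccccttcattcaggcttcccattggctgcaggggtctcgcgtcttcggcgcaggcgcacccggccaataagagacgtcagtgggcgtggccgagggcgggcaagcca
Sod1: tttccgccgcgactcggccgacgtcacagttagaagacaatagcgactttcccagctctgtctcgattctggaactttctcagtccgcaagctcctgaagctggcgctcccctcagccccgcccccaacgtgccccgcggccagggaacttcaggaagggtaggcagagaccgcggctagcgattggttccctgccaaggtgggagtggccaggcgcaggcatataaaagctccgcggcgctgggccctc

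Promoters of 8 of the 10 members were in the table, and Prdx6 and Hmox1 were not among them. The motifs searched on both strands were the core of the antioxidant response element (TGACNNNGC), the AP-1 site (TGANTCA) and the core CRX site of photoreceptor genes (TAATCC). Prdx1 held AP-1 sites at bases -248 to -242 and -133 to -127 from its start, and the second overlapped a response element core at -135 to -127. Sod2 held a response element core at -35 to -27, and the other 6 genes held none of these motifs in this window. Among all 27457 promoters of the table, 10.2% held the response element core, 6.36% the AP-1 site and 6.33% the CRX core, the last of which occurred in no member. A match of letters is a description and does not show binding.

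The libraries held 9742, 16128, 10717 and 7649 cell barcodes at 0 (control), 2, 4 and 8 weeks, with 20151789 to 34177860 unique molecular identifiers (UMIs) each. After filtering, 6823, 10984, 7689 and 4283 cells remained, with medians of 903 to 1414 UMIs. Pairs of analysed libraries shared 13 to 70 barcodes. Rods, cones, bipolar cells, amacrine cells, Müller glia and microglia had at least 50 cells in every library and were compared. Each name rests on marker genes, such as Glul, Rlbp1 and Slc1a3 in Müller glia and C1qa, C1qb and C1qc in microglia. Rod transcripts were found in all classes, and in Müller glia, microglia, amacrine and endothelial cells they were most abundant at 2 weeks. The summed rod markers in Müller glia stood at 1871, 11960, 2972 and 1756 CPM (the usual count scaling, here by all UMIs of that class in its library) at 0 (control), 2, 4 and 8 weeks.

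Among the 6 compared classes and endothelial cells, every member but Sod2 had the same highest class in all 4 libraries. Sod1, the cytosolic dismutase, was highest in amacrine cells, at 512 to 603 CPM over the libraries, and lowest in microglia, at 78.1 to 130 CPM. Its ranges in endothelial cells, bipolar cells, Müller glia, cones and rods each overlapped that of the next class in order. Sod2, the mitochondrial dismutase, averaged 227 ± 61.0 CPM (SD over 4 libraries of different condition) in microglia and 171 ± 7.75 CPM in amacrine cells, with overlapping ranges. Müller glia had the least Sod2, at 53.7 to 70.7 CPM.

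Cat, the peroxisomal catalase, was sparse in all classes. It was highest in endothelial cells (59.4 to 81.3 CPM), followed by Müller glia (37.4 to 57.4 CPM), and it lay under 20 CPM on average in rods and microglia. Gpx1, the cytosolic glutathione peroxidase, was highest in microglia among these classes, at 552 to 836 CPM, and endothelial cells came next at 220 to 425 CPM. Outside these classes, erythroid cells had 792, 688, 399 and 671 CPM of Gpx1 at 0 (control), 2, 4 and 8 weeks. Other myeloid cells had 682 CPM in control (13 cells) and 923 CPM at 2 weeks (14 cells). All other compared classes lay at or below 75.1 CPM of Gpx1. Gpx4, which reduces lipid hydroperoxides within membranes and opposes ferroptosis, was highest in cones and lowest in microglia. It averaged 2070 ± 494 CPM in cones, 1873 ± 649 CPM in rods and 1423 ± 113 CPM in bipolar cells, each range overlapping the next, and 419 ± 115 CPM in microglia. In control and at 8 weeks bipolar cells had more Gpx4 than rods, at 1440 and 1374 CPM.

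Prdx1, a peroxiredoxin of the cytosol, was highest in Müller glia at 733 to 884 CPM, with no overlap with the next class, and lowest in rods at 76.1 to 163 CPM. Prdx2, a cytosolic peroxiredoxin that is also abundant in red cells, was highest in amacrine cells at 1179 to 1358 CPM, with no overlap with bipolar cells and cones, which came next. Müller glia had 572 to 679 CPM and rods 219 to 617 CPM, with overlapping ranges, and microglia the least, at 178 to 219 CPM. Prdx6, the peroxiredoxin that uses glutathione and also has phospholipase activity, was highest in Müller glia (171 to 343 CPM), and its range overlapped that of endothelial cells (88.2 to 205 CPM).

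Hmox1 was a microglial transcript among these classes, at 106 to 255 CPM, and endothelial cells had 18.5 to 48.8 CPM. Of rods, 0.220 to 0.529% had an Hmox1 UMI, against 29.9 to 43.2% of microglia. Among cells thinned to 1000 UMIs these shares were 0.231 to 0.471% of rods and 10.2 to 19.9% of microglia. Nqo1 was an endothelial transcript, at 71.4, 70.5, 87.3 and 73.3 CPM at 0 (control), 2, 4 and 8 weeks. In the 6 compared classes its highest level was 9.62 CPM, so its ratios could not be given there.

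**Figure D1:**
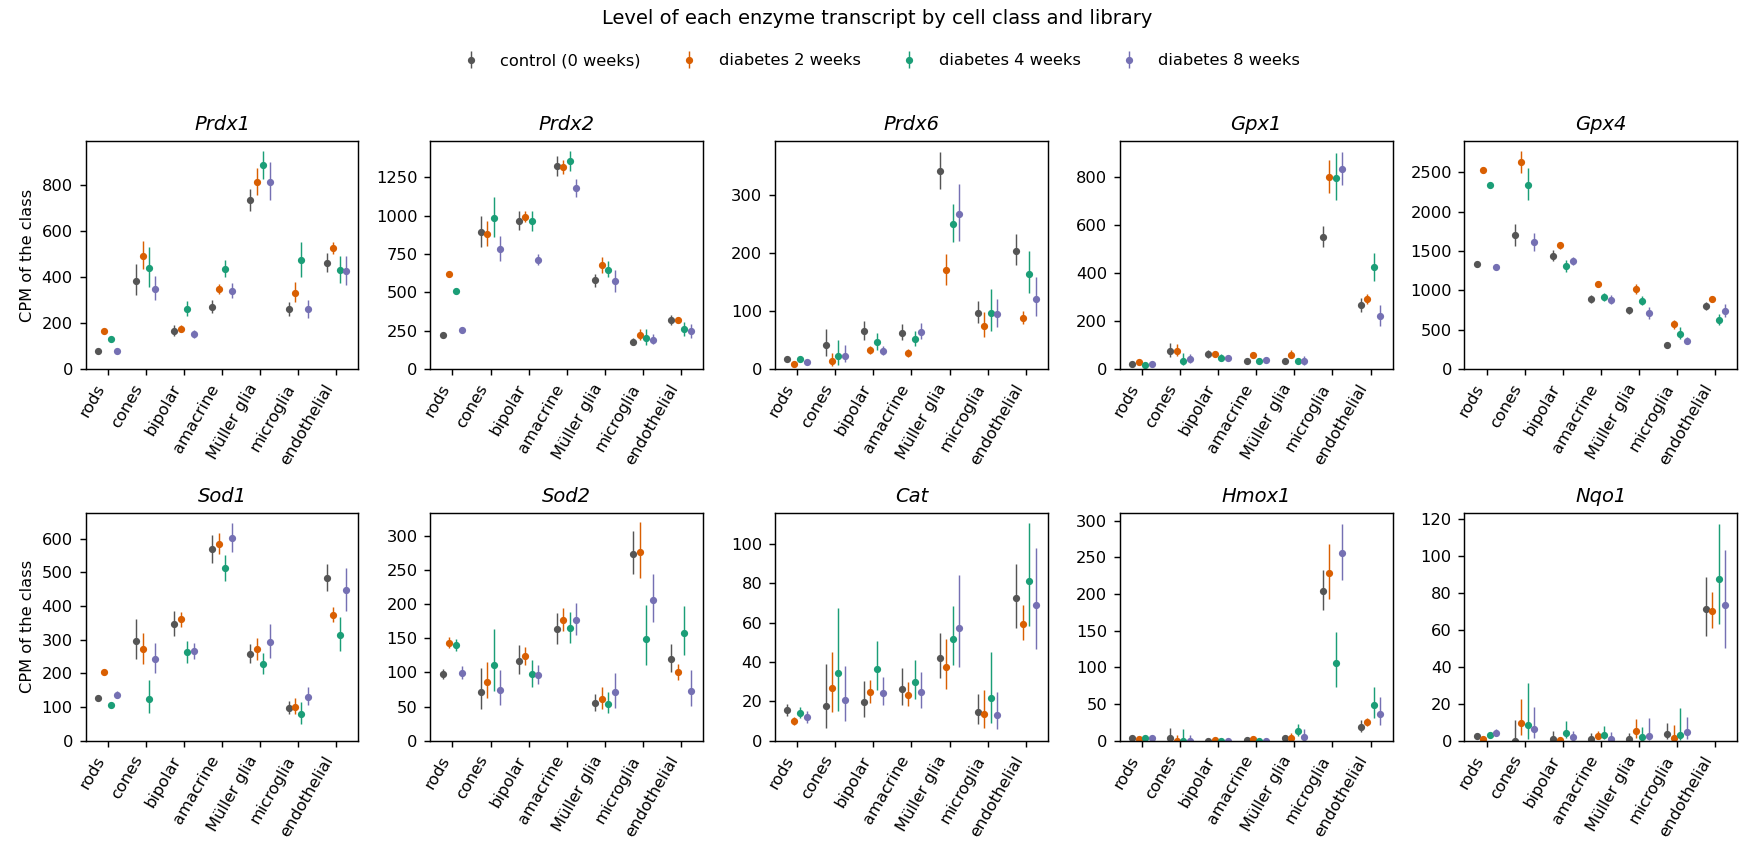
Level of each of the 10 enzyme transcripts (vertical axes, CPM of the class, starting at 0) in 7 cell classes, with 1 point per library and exact Poisson 95% intervals of the UMI count. Hmox1 stands out in microglia and Nqo1 in endothelial cells, and the orange (2 weeks) and green (4 weeks) points of Prdx2 and Gpx4 lie above the other 2 in rods.

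Each diabetic library was then set against control within a cell class. A member counted as measurable where its mean reached 20 CPM and the pair of libraries held 30 UMIs or more, and it is called higher or lower at a ratio of at least 1.5-fold whose 95% interval excludes no change. With 1 library per group there is no test between groups, and intervals cover counting error only. All 3 comparisons share the control library. Over the 6 classes, 8 of 44 measurable member and class combinations were higher and 3 lower at 2 weeks, 7 and 3 of 44 at 4 weeks, and 1 and 1 of 44 at 8 weeks. Among all measurable genes of a class, 6.22 to 15.7% were higher and 4.46 to 28.4% lower at 2 weeks, 5.19 to 8.72% and 4.8 to 12.3% at 4 weeks, and 2.14 to 13.4% and 1.33 to 5.44% at 8 weeks.

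Rods had more transcript of several members at 2 and 4 weeks, and none was called at 8 weeks. Of the 6 members measurable in rods, 4 were higher and 0 lower at 2 weeks, where 7.57% of all 5943 measurable genes were higher and 28.4% lower. At 4 weeks 3 were higher and 0 lower, with 8.38% and 12.3% of all genes, and at 8 weeks 0 and 0, with 2.14% and 1.33%. The median log2 ratio of these members was 0.81, 0.65 and 0.03 at 2, 4 and 8 weeks, and that of all measurable genes was -0.27, 0.03 and 0.01. The latter depended on abundance, and among all genes with a mean of at least 100 CPM it was 0.02, 0.08 and 0.03. TMM scaling, which assumes that most genes do not differ, raised every rod ratio at 2 weeks by 0.39, and on that scale 6 of 6 members and 21.2% of all genes were higher at 2 weeks and 0 and 10.4% lower, while at 4 weeks 4 members and 12.5% of all genes were higher and 0 and 9.43% lower. It lowered the ratios of microglia by 0.18 at 2 weeks and 0.13 at 4 weeks.

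Prdx2 showed the widest difference in rods, at 219, 617, 507 and 257 CPM at 0 (control), 2, 4 and 8 weeks. The 2- and 4-week rods were both above 2-fold of control, while 8-week rods lay nearer to it, though above. The log2 ratio was 1.49 (95% interval 1.41 to 1.58) at 2 weeks, 1.21 (1.12 to 1.30) at 4 weeks and 0.23 (0.12 to 0.34) at 8 weeks. Of rods, 21.1, 43.3, 36.1 and 28.5% had at least 1 Prdx2 UMI, and 19.4, 47.3, 44.7 and 22.0% of rods thinned to 1000 UMIs, which left out 3258, 4715, 4401 and 1478 shallower cells.

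Because red cells carry Prdx2, their RNA in rods was measured. The summed erythroid markers in rods stood at 377, 318, 332 and 308 CPM at 0 (control), 2, 4 and 8 weeks, which is highest in control. Within that list the haemoglobin gene Hba-a2 stood at 211, 85.2, 54.9 and 93.8 CPM, and Slc4a1 and Hbe2 were at or near 0. Hbb in rods stood at 13.6, 17.8, 5.01 and 9.23 CPM, and Hba-a3 at 6.25, 12.2, 4.86 and 2.31 CPM, both highest at 2 weeks. In the 54, 46, 19 and 26 cells of the erythroid class itself, Prdx2 stood at 1489, 817, 731 and 1125 CPM. The part of red cell RNA in the Prdx2 ratios was not tested.

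Gpx4 stood at 1329, 2528, 2334 and 1300 CPM in rods at 0 (control), 2, 4 and 8 weeks. The 2- and 4-week libraries were again the high ones, and the 8-week level differed from control by less than the counting error. The log2 ratios were 0.93 (0.89 to 0.96), 0.81 (0.77 to 0.85) and -0.03 (-0.08 to 0.02). Prdx1 gave 76.1, 163, 131 and 77.2 CPM, with log2 ratios of 1.10 (lower bound 0.95), 0.78 (0.62 to 0.95) and 0.02 (-0.18 to 0.22), again with the 2-week library highest and the 4-week library next.

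Sod1 in rods did not follow this order. It stood at 126, 204, 106 and 136 CPM at 0 (control), 2, 4 and 8 weeks. It was called higher at 2 weeks (0.70, 0.57 to 0.82), and its ratio at 4 weeks was -0.24 (-0.39 to -0.09), so the 2- and 4-week libraries lay on either side of control. Sod2 stood at 97.7, 143, 140.5 and 99.9 CPM, the same order of libraries as Prdx1, and its ratios of 0.55 and 0.52 at 2 and 4 weeks stayed under 1.5-fold. Gpx1 was sparse in rods, at 21.5, 27.5, 14.6 and 20.4 CPM, and was not called at any time. Prdx6, Cat, Hmox1 and Nqo1 fell under the limits in rods.

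**Figure D2:**
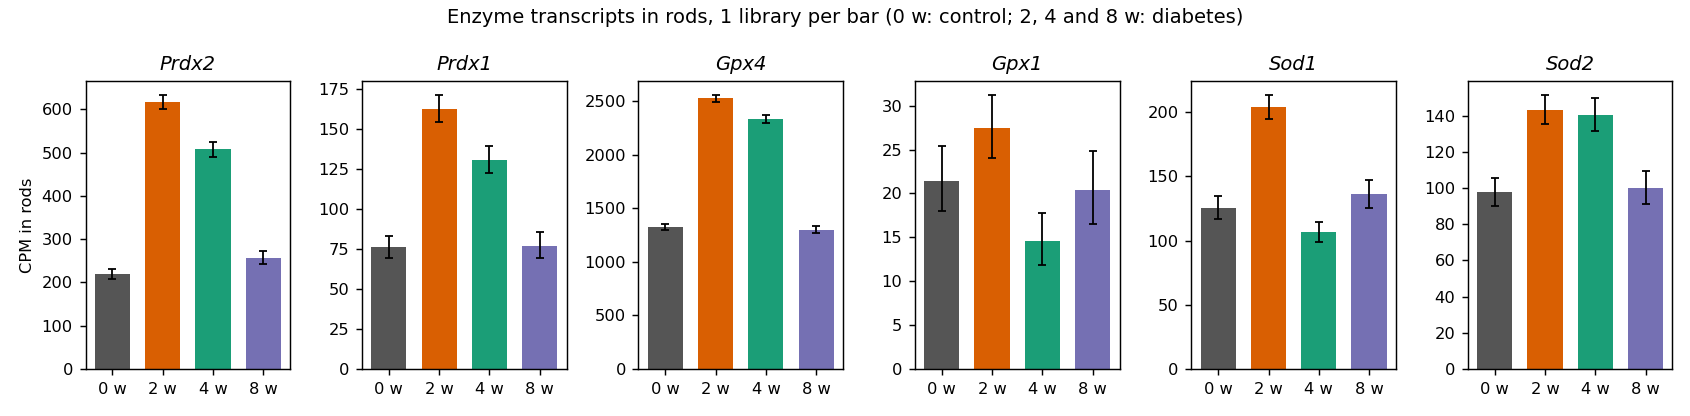
Levels in rods (vertical axes, CPM, starting at 0) of the 6 members measurable there, 1 bar per library with exact Poisson 95% intervals of the UMI count. Prdx2, Prdx1 and Gpx4 are high at 2 and 4 weeks and near control at 8 weeks, whereas Sod1 is high at 2 weeks only.

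Rods fell into 6 clusters that the libraries filled unequally. A cluster led by Rp1, Grk1 and the stress gene Trib3 held 3721 of 5370 control rods and 2156 of 3024 rods at 8 weeks, but 149 of 7739 at 2 weeks and 641 of 6526 at 4 weeks. The 2-week rods lay mostly in 2 other clusters (3455 and 2420 cells), and the 4-week rods in another (3932 cells). The ratios were therefore also taken within clusters of at least 30 cells in both libraries, 5 at 2 weeks and 6 at 4 weeks.

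Prdx2 was higher in each of these clusters, with log2 ratios of 0.89 to 1.21 at 2 weeks and 0.81 to 1.51 at 4 weeks. Gpx4 was likewise higher in each, by 0.51 to 0.81 at 2 weeks and 0.64 to 1.02 at 4 weeks, and the interval of every one of these ratios lay above 0. Prdx1 was positive in each but ranged widely, from 0.29 to 1.26 at 2 weeks and 0.07 to 1.02 at 4 weeks. Sod1 ranged from -0.06 to 0.92 at 2 weeks, so the Sod1 difference over all rods was not present in every cluster, and from -0.86 to -0.22 at 4 weeks. Gpx1, though sparse, was below control at 4 weeks in the 5 clusters with a UMI in both libraries, by ratios of -1.64 to -0.60. Summed rod markers in rods also differed between the libraries, at 51910, 95220, 67220 and 61430 CPM at 0 (control), 2, 4 and 8 weeks, and the median mitochondrial share in rods was 2.88, 6.64, 1.83 and 3.09%. Their part in the result was not tested.

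**Figure D3:**
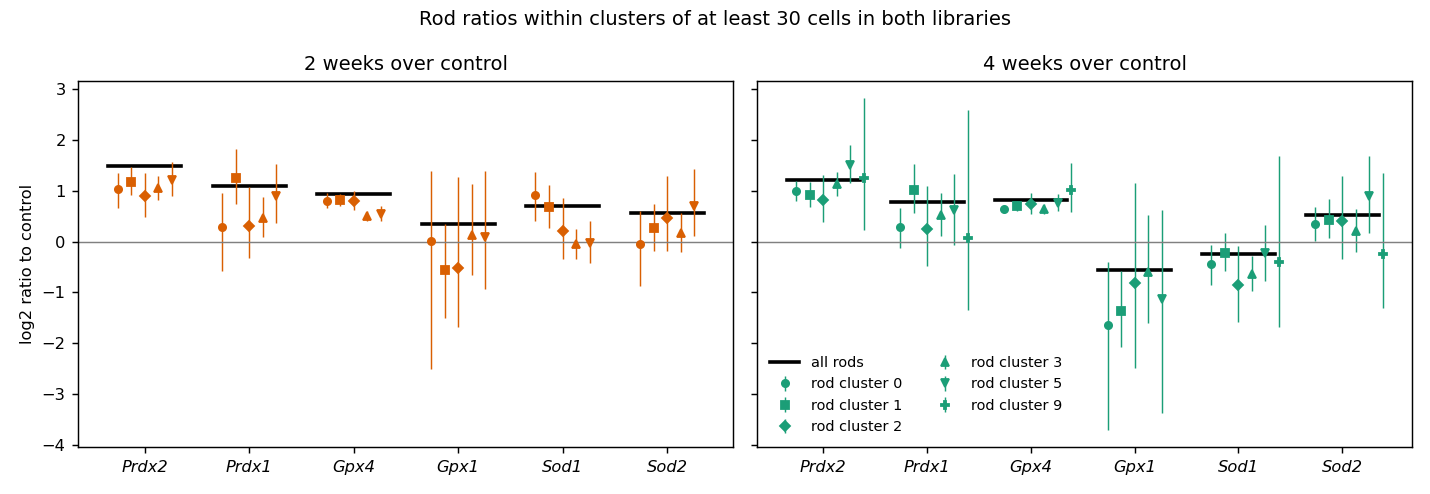
log2 ratio to control (vertical axis) of the 6 members in rods, at 2 weeks (left) and 4 weeks (right), for all rods (black lines) and within each cluster (points, with exact conditional binomial 95% intervals). Prdx2 and Gpx4 lie above 0 in every cluster, and Sod1 at 2 weeks spreads from -0.06 to 0.92. A ratio with no UMI in 1 of the libraries is not drawn.

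Prdx6 was lower than control at 2 weeks in several classes. In Müller glia, where it is most abundant, it stood at 343, 171, 251 and 267 CPM at 0 (control), 2, 4 and 8 weeks, so all 3 diabetic libraries lay below control and the 2-week one lowest. The log2 ratio was -1.0 (-1.27 to -0.75) at 2 weeks, -0.45 (-0.68 to -0.22) at 4 weeks and -0.35 (-0.66 to -0.07) at 8 weeks, and only the first is called. Of Müller glia thinned to 1000 UMIs, 28.4, 14.1, 19.8 and 18.9% had a Prdx6 UMI, and 62.1, 30.4, 49.0 and 46.8% of all Müller glia did.

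Amacrine cells had 62.3, 27.2, 51.7 and 64.3 CPM of Prdx6, with a ratio of -1.19 (-1.68 to -0.71) at 2 weeks only. In bipolar cells it stood at 65.3, 32.3, 46.0 and 30.9 CPM and was called lower at 2 weeks (-1.02, -1.49 to -0.54) and 8 weeks (-1.08, -1.6 to -0.56). Both bipolar calls were lost with cells thinned to 1000 UMIs and at a mitochondrial limit of 10%, which few bipolar cells pass, since their median share was 16.0 to 16.9%, and the second was lost at a limit of 40% and with every deposited barcode as well. Microglia had 96.3, 74.6, 96.8 and 94.8 CPM and were not called at any time. The clusters within amacrine and bipolar cells were filled unequally. An amacrine cluster held 16 of 171 cells in control and 130 of 482 at 2 weeks. A bipolar cluster led by Pcp2 held 8 of 258 cells in control and 140 of 942 at 2 weeks. The part of these clusters in the 2-week ratios of either class was not tested.

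The classes under the limits gave like values at 2 weeks. Endothelial cells had 88.2 CPM of Prdx6 at 2 weeks and 205 CPM in control (-1.22, -1.47 to -0.95), and pericytes and smooth muscle had 56.8 and 163 CPM in 299 and 40 cells (-1.55, -2.30 to -0.67). Rods had 8.54 CPM at 2 weeks and 17 CPM in control (-0.99, -1.44 to -0.55). In Müller glia, free RNA, taken as the pooled profile of the library scaled by 5 rod genes, was estimated as 28.3% of the UMIs at 2 weeks and 11.3% in control. With that RNA subtracted, the Müller ratio was -0.77 and still called. In bipolar cells the summed rod markers stood at 5330, 13420, 7554 and 21350 CPM at 0 (control), 2, 4 and 8 weeks. The same estimate came to 104% of bipolar UMIs at 8 weeks, more than the whole, so no subtraction was made in that class, and the part of rod transcripts in its Prdx6 ratios was not tested.

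**Figure D4:**
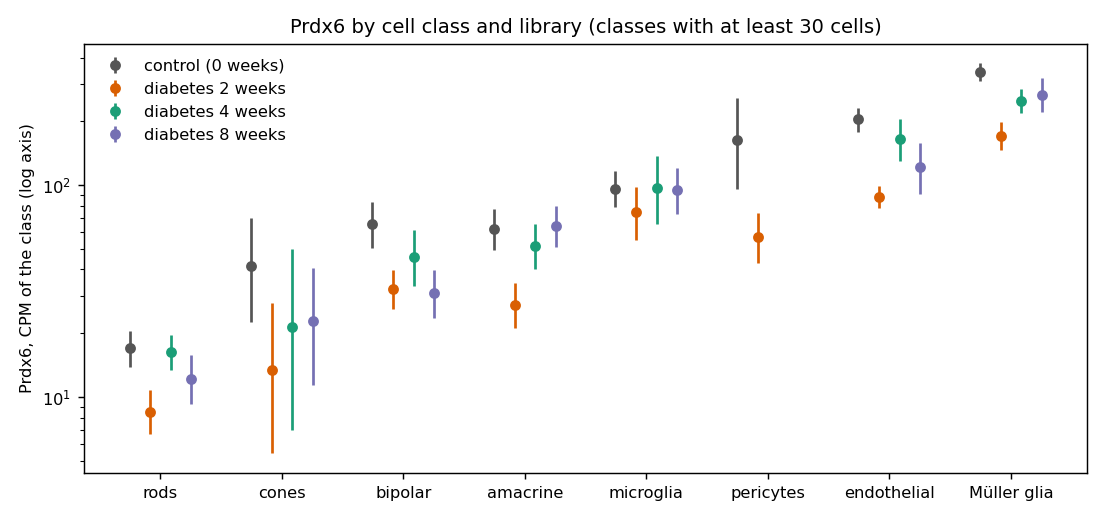
Level of Prdx6 (vertical axis, CPM of the class, log scale) in 8 cell classes, 1 point per library with at least 30 cells of the class, with exact Poisson 95% intervals of the UMI count. The 2-week library (orange) is the lowest or next to lowest point in every class, and microglia show the smallest gap to control.

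In Müller glia, 8 members were measurable. At 2 weeks 1 was higher and 1 lower, where 8.11% of all genes were higher and 5.36% lower. At 4 weeks it was 0 and 0 (7.79% and 6.49% of all genes), and at 8 weeks 0 and 0 (4.43% and 2.15%). The lower gene was Prdx6 and the higher one Gpx1, at 34.5, 59.6, 32.7 and 30.9 CPM at 0 (control), 2, 4 and 8 weeks (0.79, 0.21 to 1.38 at 2 weeks). The Gpx1 ratio was -0.16 among cells thinned to 1000 UMIs, so its direction turned, though on few counts. Of the thinned cells, 17 in control (4.56%, 2.68 to 7.20%) and 13 at 2 weeks (3.53%, 1.89 to 5.97%) had a Gpx1 UMI. Prdx1 stood at 733, 813, 884 and 813 CPM, with all diabetic libraries a little above control and none called.

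In microglia, 8 members were measurable. At 2 weeks 1 was higher and 0 lower, against 15.7% and 4.83% of all genes. At 4 weeks 1 was higher and 2 lower, against 8.72% and 7.82%, and at 8 weeks 1 and 0, against 4.06% and 4.63%. Gpx1 stood at 552, 802, 799 and 836 CPM at 0 (control), 2, 4 and 8 weeks. All 3 diabetic libraries lay above control with intervals that exclude no change, at 0.54 (0.37 to 0.71), 0.54 (0.32 to 0.75) and 0.60 (0.43 to 0.77), and only the last passed 1.5-fold. Red cells also carry Gpx1, and the summed erythroid markers in microglia were highest in control, at 4001, 1317, 78.1 and 1244 CPM. Within that list Hba-a2 stood at 3588, 972, 21.9 and 1052 CPM, and Hbb at 230, 287, 0 and 122.5 CPM. The part of red cell RNA in the Gpx1 ratios was not tested.

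Gpx4 in microglia stood at 303, 566, 450 and 359 CPM and was called at 2 weeks (0.90, 0.69 to 1.12). The summed rod markers in microglia were 1843, 10570, 2307 and 2491 CPM, and with free RNA subtracted the Gpx4 ratio at 2 weeks was -0.24, so its direction turned. Prdx1 stood at 259, 331, 471 and 258 CPM, and the 4-week library was the high one (0.87, 0.57 to 1.16).

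Sod2 and Hmox1 were the members lower in microglia at 4 weeks. Sod2 stood at 274, 278, 150 and 207 CPM at 0 (control), 2, 4 and 8 weeks, with a ratio of -0.86 (-1.34 to -0.43) at 4 weeks, and Hmox1 at 205, 228, 106 and 255 CPM (-0.93, -1.51 to -0.42). Microglia formed 2 clusters, and the one led by the chemokine genes Ccl4 and Ccl3 held 73 of 213 cells in control but 7 of 77 at 4 weeks. Sod2 was far higher in that cluster, at 470 CPM in control, than in the other, at 47.5 CPM. Within the cluster low in chemokine genes, Sod2 stood at 53.3 CPM at 4 weeks and 47.5 CPM in control (14 and 24 UMIs), and Hmox1 at 103 and 117 CPM (27 and 59 UMIs). In the cluster high in them, Sod2 stood at 589 CPM at 4 weeks and 470 CPM in control (34 and 275 UMIs). Hmox1 stood there at 121 and 280 CPM (7 and 164 UMIs). A single cell held 33.3% of the Sod2 UMIs of 4-week microglia.

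In bipolar cells, 8 members were measurable. At 2 weeks 0 were higher and 1 lower, against 7.61% and 5.22% of all genes, at 4 weeks 2 and 0, against 7.22% and 5.14%, and at 8 weeks 0 and 1, against 13.4% and 5.44%. Besides Prdx6, Prdx1 stood at 165, 175, 262 and 153 CPM, called at 4 weeks (0.67, 0.38 to 0.96), and Cat at 19.5, 24.6, 36.6 and 24.3 CPM, called at 4 weeks (0.89, 0.07 to 1.78). The Cat ratio was -0.13 at a mitochondrial limit of 10%. Prdx2 stood at 968, 993, 964 and 713 CPM. Its ratio of -0.44 at 8 weeks was -0.18 without 1 bipolar cluster, left out after the data were seen, that held 65 of the 382 cells at that time.

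In amacrine cells, also with 8 measurable members, 1 was higher and 1 lower at 2 weeks (8.87% and 5.08% of all genes), 1 and 0 at 4 weeks (6.72% and 4.8%), and 0 and 0 at 8 weeks (3.43% and 2.31%). Gpx1 stood at 34.3, 58.0, 32.9 and 37.3 CPM and was called at 2 weeks (0.75, 0.26 to 1.28). Prdx1 stood at 271, 346, 434 and 338 CPM and was called at 4 weeks (0.68, 0.48 to 0.88), so that 4 weeks was its high library, as in bipolar cells and microglia. Prdx2, which is most abundant in this class, stood at 1323, 1319, 1358 and 1179 CPM, and the interval of its ratio at 2 weeks was -0.09 to 0.08, beside a ratio of 1.49 in rods.

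In cones, 6 members were measurable. At 2 weeks 1 was higher and 0 lower (6.22% and 4.46% of all genes), at 4 weeks 0 and 1 (5.19% and 5.12%), and at 8 weeks 0 and 0 (4.82% and 3.36%). Gpx4 stood at 1697, 2627, 2343 and 1613 CPM, the same order of libraries as in rods, with ratios of 0.63 (0.49 to 0.77), 0.46 (0.29 to 0.64) and -0.07 (-0.23 to 0.08). Free RNA, scaled by rod genes, was estimated as 17.6, 25.3, 15.2 and 33.8% of cone UMIs at 0 (control), 2, 4 and 8 weeks. Prdx2 did not share the rod pattern in cones, at 890, 878, 987 and 783 CPM. Sod1 stood at 297, 271, 124 and 242 CPM, and the 4-week library of 60 cones was low (-1.24, -1.90 to -0.65).

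**Figure D5:**
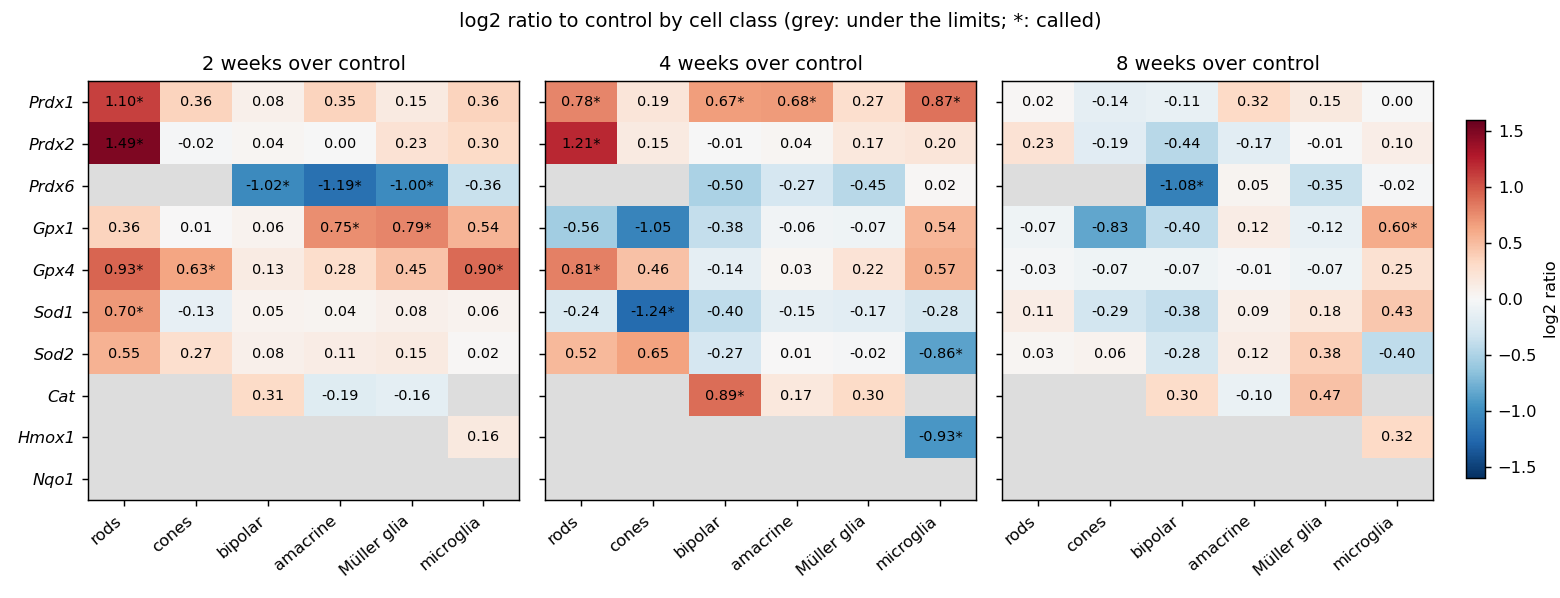
log2 ratio to control (colour and printed value) of the 10 members (rows) in 6 cell classes (columns) at 2, 4 and 8 weeks. Asterisks mark ratios of at least 1.5-fold whose 95% interval excludes no change, and grey cells fell under the limits. The rod column is red for Prdx1, Prdx2 and Gpx4 at 2 and 4 weeks, and the Prdx6 row is blue at 2 weeks.

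The calls of Prdx1, Prdx2, Gpx4 and Sod1 in rods, of Prdx6 in Müller glia and of Prdx1 in microglia held under every alternative run for single genes. The other calls were each lost under at least 1 of them. Thinning to 1000 UMIs per cell, which leaves fewer UMIs to count, ended those of Prdx6 and Gpx1 in amacrine cells, of Sod2 and Hmox1 in microglia and of Gpx4 and Sod1 in cones, and the bipolar and amacrine calls of Prdx1 at 4 weeks were lost under 4 alternatives each.

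Other antioxidant genes were counted from lists. In rods at 2 weeks, where 7.57% of all genes were higher and 28.4% lower, 2 of 7 measurable other peroxide and radical enzymes were higher and 0 lower, with a median log2 ratio of 0.50. They were Park7, a redox-sensitive chaperone, at 254, 461, 340 and 273 CPM at 0 (control), 2, 4 and 8 weeks, and the mitochondrial peroxiredoxin Prdx5 at 106, 175, 153 and 110 CPM. Of 7 thioredoxin and glutaredoxin genes 1 was higher, which was thioredoxin itself (Txn1, 29.2, 65.9, 36.4 and 38.6 CPM), and the median was 0.45. Of 11 genes of glutathione synthesis and use 4 were higher and 2 lower, with a median of 0.50. The glutathione transferase Gstp1 was called at all 3 times, with ratios of 1.51, 1.27 and 0.74. Chac1, whose enzyme degrades glutathione, was lower at all 3 times. It stood at 185, 0.234, 13.1 and 50.1 CPM at 0 (control), 2, 4 and 8 weeks, and its ratio of -9.30 (-12.67 to -7.77) at 2 weeks rests on 2 UMIs, against 1152 in control. The part of the unequally filled rod clusters in the Chac1 values was not tested.

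Of 4 measurable genes of the NRF2 axis in rods 1 was higher and 0 lower at 2 weeks (median -0.28), namely the small MAF protein gene Mafg at 54.6, 114, 56.1 and 65.5 CPM. Of 9 other NRF2 targets 2 were higher and 0 lower (median 0.03), which were the ferritin heavy chain Fth1 at 624, 1395, 738 and 625 CPM and the pentose phosphate enzyme Taldo1. Of 6 genes of NADPH supply 1 was higher, Taldo1 again, and 1 lower (median -0.03). Of 10 selenoprotein genes 2 were higher and 2 lower (median -0.11), and among them Selenok stood at 160, 299, 200 and 183 CPM. The members Gpx1 and Gpx4 are selenoproteins too.

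In Müller glia, 0 of 5 measurable genes of the NRF2 axis were called in either direction at any time, and 0 of 11, 1 of 11 and 0 of 11 other NRF2 targets were higher at 2, 4 and 8 weeks, with 1 lower at 8 weeks. The target higher at 4 weeks was Gclc, the catalytic subunit of the first enzyme of glutathione synthesis, at 15.7, 28.3, 30.6 and 28.7 CPM at 0 (control), 2, 4 and 8 weeks. Of 17 glutathione genes 0, 4 and 1 were higher and 0 lower at 2, 4 and 8 weeks. Gss, which completes glutathione, was among the 4, at 18.0, 27.3, 40.0 and 28.7 CPM. Among all measurable genes of Müller glia, 8.11%, 7.79% and 4.43% were higher and 5.36%, 6.49% and 2.15% lower at 2, 4 and 8 weeks. Txnip, whose protein binds and inhibits thioredoxin, was lower at all 3 times, at 148, 28.3, 58.0 and 57.4 CPM. Prdx4, the peroxiredoxin of the endoplasmic reticulum, was lower at 2 weeks like Prdx6, at 160, 96.9, 150 and 130 CPM. Free RNA was estimated as 28.3% of Müller UMIs at 2 weeks and 11.3% in control. Its part in the Prdx4 value was not tested.

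In microglia, Nfe2l2, which encodes NRF2, was lower at 4 weeks together with its target Hmox1, at 213, 233, 96.8 and 168 CPM (-1.12). It was the 1 of 6 measurable genes of the NRF2 axis called lower at that time, and 0 of 7 other NRF2 targets were called in either direction. Among all measurable genes of microglia, 8.72% were higher and 7.82% lower at 4 weeks. The share of microglia in the cluster high in chemokine genes, given above, differed between these libraries as well, and its part in the Nfe2l2 value was not tested.

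Likeness of pattern was measured as the Pearson correlation of log2 (CPM + 10) over 24 points, the 6 classes in each of 4 libraries. It is a description, since the 6 points of a library share that library. It also takes in differences between classes as well as between libraries, and does not separate them. For Hmox1, the highest level in any compared class other than microglia was 12.6 CPM. Among 6280 genes, Prdx2 was most like Pebp1 (r = 0.98), Ndufc2 (0.98) and Pgk1 (0.98), and Ch25h and Nfkbiz were among the 3 most like Hmox1 (each 0.99). Gpx1 was most like Tpt1, Rps12 and Lmo2, Gpx4 most like Dnajb2, Pcbp4 and Anp32e, and Prdx6 most like Hsd17b10, Laptm4a and Mpst. Among the members, Hmox1 and Gpx1 were the most alike (0.92), followed by Sod1 and Prdx2 (0.85).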

How the data were processed

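The deposited matrices hold raw UMI counts per gene and barcode, with no normalization by the authors; Cell Ranger 3.0.1 and the Rnor_6.0 build are named in the submitters' processing notes. Reads shared with near-identical gene copies could not be separated. Barcodes under 200 genes or above 20% mitochondrial UMIs were dropped, top Scrublet scores (scanpy 1.11.5) removed, and the 4 libraries clustered together without the members (leidenalg 0.10.2, 25 clusters). Clusters were named from marker lists, and a tie between classes left one unnamed. Names were rebuilt here and are not the authors'. Counts were summed per library and class and scaled to CPM; log2 ratios had 0.5 counts added, with exact conditional binomial 95% intervals. Limits of calls are given above. The calling was tested on simulated counts, and the share of unchanged genes it might call was relaxed after cones at 4 weeks exceeded the first limit. Alternatives included TMM scaling (edgeR 4.0.16 in R 4.3.3), other filters and resolutions, thinning and subtraction of free RNA. Members and lists were chosen with earlier results of these data known. All members were named, and from each list, per class, the most abundant and the called genes with the widest ratios; Trib3, Ccl3 and Ccl4 were named after their values were seen. Some genes that these rules name are not reported here.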

Additional observations from a re-analysis of the deposited data

Results flagged for a closer look

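Sod2 at 4 weeks lay above control in rods and below it in microglia, with log2 ratios of 0.52 (under the 1.5-fold limit) and -0.86 (called lower). The ratio in rods minus that in microglia was 1.38. It stands here because the summed counts of 1 class lay above control and those of another below it under the same contrast. There was 1 library per group, and the difference was not tested. Microglia at 4 weeks held few cells of the cluster rich in chemokine genes and Sod2, as given above. Within neither microglial cluster was Sod2 lower at 4 weeks than in control. It stood at 53.3 and 47.5 CPM in the cluster low in chemokine genes, and at 589 and 470 CPM in that rich cluster (7 and 73 cells).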

How the results depend on the processing

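Ratios, counts and medians were recomputed under the alternatives that apply to each, of 19 in all, 3 of them chosen after seeing the data, which gave 2013 values. Of these 1870 kept their direction and side of the threshold or moved by less than the counting error, 140 moved further and 3 reversed. The reversed ratios were Cat in bipolar cells at 4 weeks (-0.13 at a mitochondrial limit of 10%), Gpx1 in Müller glia at 2 weeks (-0.16 with cells thinned to 1000 UMIs) and Gpx4 in microglia at 2 weeks (-0.24 with free RNA subtracted); their causes were not tested. The rod calls of Prdx1, Prdx2 and Gpx4 at 2 and 4 weeks and of Sod1 at 2 weeks were kept under all 12 alternatives run for single genes.

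The median of the measurable members in rods was 0.99 at 2 weeks and 0.84 at 4 weeks with every deposited barcode, 1.20 at 2 weeks with TMM scaling, 0.85 at 4 weeks with thinning, and 0.63 and 0.23 at 2 and 4 weeks with a mean of 5 CPM, which admits sparse members. Over the 6 classes, a 2-fold limit left 2, 1 and 0 members higher at 2, 4 and 8 weeks and 1 lower at 4 weeks, and the laxest fold limit tried gave 15, 11 and 2 higher, with 6 and 5 lower at 4 and 8 weeks. At 8 weeks 0 were higher at a mitochondrial limit of 40%, with every deposited barcode, with doublets kept or without the richest cell. Members lower at 2 weeks numbered 1 with thinning, 5 with free RNA subtracted, 5 at 5 CPM and 1 at 100 CPM. With thinning 0 were lower at 4 weeks, and at 8 weeks 0 were lower with thinning, at a mitochondrial limit of 10% or at 100 CPM. No paired analysis was possible because each group has 1 analysed library. The subtraction was not made in rods or bipolar cells. Its estimate of free RNA in bipolar cells was 27.7, 31.8, 23.2 and 104% of UMIs at 0 (control), 2, 4 and 8 weeks, and in cones 17.6, 25.3, 15.2 and 33.8%. One library per group, free RNA, and classes of as few as 60 cells limit all comparisons.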

Other observations

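Genes of the NADPH oxidase, the complex with which phagocytes make superoxide, were measurable mainly in microglia. Of 6 such genes, 1 was higher at 2 weeks, 2 at 4 weeks and 1 at 8 weeks, and 0 were lower. Among all measurable genes of microglia, 15.7%, 8.72% and 4.06% were higher and 4.83%, 7.82% and 4.63% lower at these times. Cybb, the catalytic subunit, stood at 93.5, 252, 65.6 and 70.0 CPM at 0 (control), 2, 4 and 8 weeks, so only the 2-week library was high. The cytosolic subunit Ncf1 stood at 208, 199, 350 and 178 CPM and the GTPase Rac2 at 154, 167, 322 and 238 CPM, and for both the 4-week library was the high one. Rac2 was also the gene called at 8 weeks (0.63, 0.31 to 0.95). The microglial cluster high in chemokine genes held 73 of 213 cells in control, 100 of 191 at 2 weeks and 7 of 77 at 4 weeks. Its part in these values was not tested.

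Metallothioneins, small metal-binding proteins that also scavenge radicals, were measurable, all 3 of them, in Müller glia. There Mt3 stood at 497, 726, 837 and 694 CPM at 0 (control), 2, 4 and 8 weeks and was called higher at 4 weeks, where 7.79% of all genes were higher. Mt1 stood at 816, 574, 896 and 778 CPM in Müller glia and was not called. In microglia Mt1 was lower at 2 and 8 weeks, at 40.4, 13.4, 46.8 and 20.4 CPM (44, 9, 15 and 14 UMIs). The ratio at 8 weeks was -0.95 (-1.97 to -0.09). Among all measurable genes of microglia, 4.83% were lower at 2 weeks and 4.63% at 8 weeks. The part of RNA from other cells in these Mt1 values was not tested.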
